A study of Arabidopsis thaliana with 26 samples.

Results

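Developing leaves of Arabidopsis thaliana accession Col-0 sampled at 48 h were compared with developing leaves sampled at 24 h of the same treatment. Differences were taken between 8 of the 26 arrays, chosen by their labels: 4 arrays at 48 h and 4 at 24 h. Each group was numbered as replicates 1 to 4. The spread behind the p-values was estimated over all 26 arrays. Both groups had the treatment that the series title calls elevated CO2 with ambient light, given on the sample labels only as the code E, and both were leaves of insertions 19 to 21 at growth stages 1.19 to 1.21. All plants grew on compost in a growth room at 20 °C, 50% humidity and 10 h of light per day. The 2 times lie 24 h apart, so the groups share a time of day and differ in hours of treatment and in leaf age. The labels do not say which leaves of a plant met the elevated CO2, nor whether numbered replicates came from separate plants. P-values therefore reflect only how far the arrays scatter, and part of that scatter may be technical. Untreated plants are not analysed here, so a difference between the times cannot be told apart from ordinary ageing of the leaf.

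A young leaf grows first by cell division and later by cell expansion. Division needs histones, replication factors and mitotic kinases, and expansion needs enzymes and expansins that loosen the cell wall. Stomata arise from a lineage of asymmetric divisions in the young epidermis, which the transcription factor SPEECHLESS (SPCH) starts, and mature leaves that sense light and CO2 are known to send signals that alter stomatal formation in developing leaves. Whole leaves were measured, so fewer cells of a type and less RNA per cell cannot be told apart.

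Each transcript was read by a probe set on an ATH1 array, and signals are linear MAS5 intensities scaled by the authors to a trimmed mean of 100 on every array. Differences are 48 h minus 24 h on the log2(signal + 16) scale, where 1 is a 2-fold difference for a bright probe set and less is shown for a dim one. The test was limma's moderated test over 16154 probe sets, with p-values adjusted by the Benjamini-Hochberg method and a threshold of 0.05. Array medians lay between 41.6 and 47.4. Replicate 1 stood apart at both times. Its cre spike-in read 6745 at 48 h and 6451 at 24 h, against 1718 to 2848 on the other 6 arrays, and its 25S ribosomal RNA control read 1571 at 48 h and 4449 at 24 h, against 16.8 to 74.2 on the others. Across probe sets, replicate 1 correlated with the other replicates at r = 0.956 to 0.966 at either time, and the others correlated with each other at 0.976 to 0.986 at 48 h and 0.972 to 0.987 at 24 h. Genes are not independent replicates in these correlations. Results are given below with and without replicate 1 of both times.

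No probe set passed the threshold between 48 h and 24 h with all 8 arrays (0 of 16154, 0%). The lowest adjusted p was 0.0716, or 0.0588 with limma fitted to those 8 arrays alone, where 0 passed as well. At an unadjusted p under 0.05, 881 probe sets (5.45%) were higher at 48 h and 774 (4.79%) lower. With each array centred on its median that split became 636 higher and 1079 lower, and with quantile normalization 768 higher and 885 lower. The 4 arrays at 48 h lay wholly above the 4 at 24 h for 401 probe sets (2.48%) and wholly below for 300 (1.86%). The median 95% half-width of a difference was 0.265, and for 16020 probe sets (99.2%) the whole interval lay within 1 log2 of 0. For 12296 (76.1%) it lay within 0.5 log2. Differences over 1 log2 were found at 7 probe sets, 4 of them higher at 48 h and 3 lower. Developing leaves a day apart at the same clock time were thus measured as close to each other over most of the array, and the genes below lie at the edges of that narrow distribution.

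Without replicate 1 of both times 15 probe sets passed the threshold (0.0929%), 10 of them higher at 48 h and 5 lower. With the replicate number as a block 17 passed (0.105%), 9 higher and 8 lower. These counts share 4 probe sets, which is 26.7% of the 15 and 23.5% of the 17. Of the 4, 2 carry the name of 1 gene, AT3G56080 and AT2G33850. The block was fitted over all arrays of developing leaves. Fitted on the 8 arrays of the 2 times alone it gave 5 probe sets, none of them among the 17 and 1 among the 15, so each call made with the block below was lost when the same block was fitted on those 8 arrays.

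AT3G56080, a locus with no other name in the gene table, had the lowest p of all in the fit to all 26 arrays. Its signal was 59.5, 52.0, 67.5 and 51.3 at 48 h, against 37.2, 24.6, 27.2 and 26.0 at 24 h. The highest 24 h array was replicate 1, and the groups do not overlap. The difference was 0.72 ± 0.13 (SE; adjusted p = 0.0716), 0.79 without replicate 1 (adjusted p = 0.0471) and 0.72 with the block (adjusted p = 0.045, but 0.15 with the block on the 8 arrays alone). Fitted to the 8 arrays alone without a block, its adjusted p was 0.304. AT2G33850, also given only a code in that table, read 1611, 1070, 1193 and 942 at 48 h, against 1796, 1821, 1518 and 1612 at 24 h. Replicate 1 at 48 h lay among the 24 h arrays, while the other 3 at 48 h lay below all of them. The difference of -0.51 ± 0.12 (adjusted p = 0.123) was -0.62 without replicate 1 (adjusted p = 0.0229), and the block gave an adjusted p of 0.0496, or 0.237 on the 8 arrays alone. In the 2 arrays of mature leaves at 24 h AT2G33850 averaged 1.02, and AT3G56080 averaged 161.

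**Figure D1:**
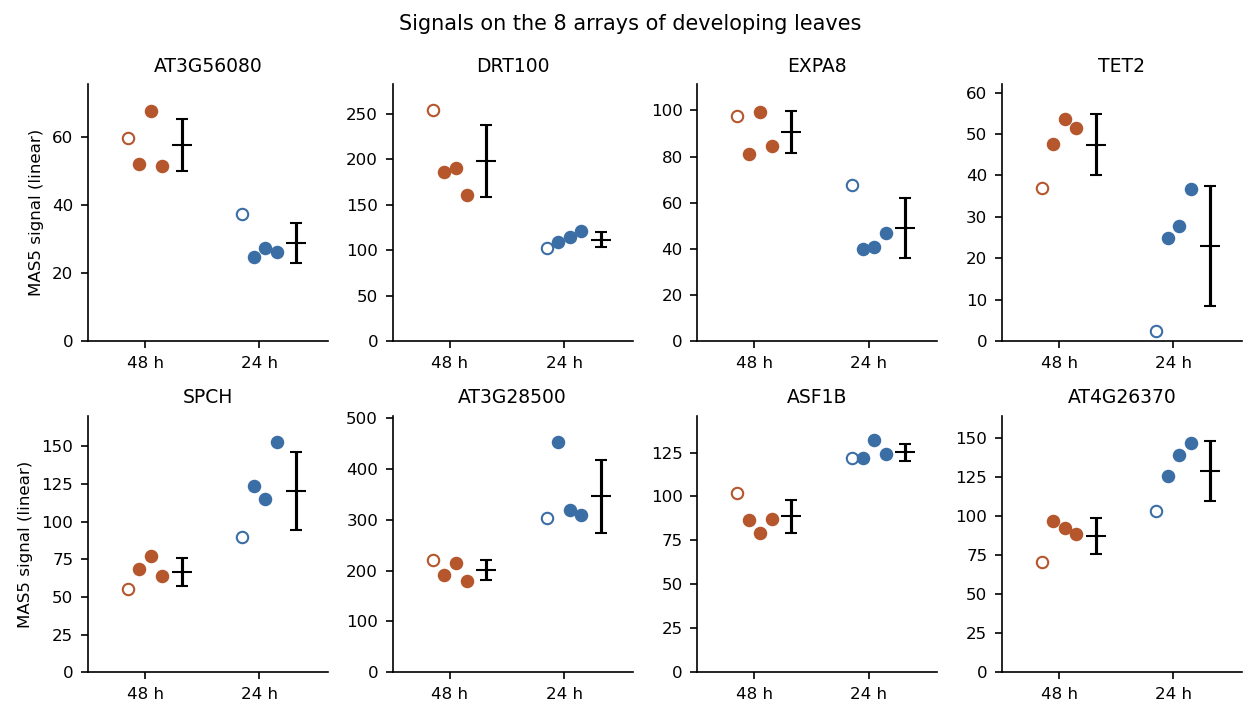
Signal of 8 genes on each array of developing leaves at 48 h (orange, left) and 24 h (blue, right), on linear axes that start at 0. Open circles are replicate 1, filled circles replicates 2 to 4, and black bars the mean ± SD of the 4 arrays; for each gene drawn the 48 h and 24 h arrays do not overlap.

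The stomatal lineage was read through 3 tested genes of 20 on its list. SPCH, the transcription factor that starts the lineage, read 55.5, 68.9, 77.5 and 63.8 at 48 h, against 89.8, 124, 115 and 153 at 24 h. Every 48 h array lay below every 24 h array. Its difference was -0.71 ± 0.17 (95% interval -1.05 to -0.37; adjusted p = 0.123), and -0.76 without replicate 1 (adjusted p = 0.0848). Fitted to the 8 arrays alone without a block, its adjusted p was 0.41. With the replicate block SPCH passed the threshold (adjusted p = 0.045), but not with the block on the 8 arrays alone (adjusted p = 0.124). At 96 h SPCH averaged 65.3 ± 9.63 (SD, n = 4), next to 66.4 ± 9.22 at 48 h, and in mature leaves it averaged 3.67.

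Arrays of the other 2 tested genes of the stomatal list overlapped. FMA, which acts at the last step of guard cell formation, read 75.6, 61.8, 50.9 and 66.1 at 48 h, against 67.2, 52.4, 64.7 and 57.9 at 24 h. STOMAGEN, a peptide secreted by the mesophyll that promotes stomatal formation, read 316, 309, 310 and 293 at 48 h, against 316, 294, 343 and 284 at 24 h. The interval of the difference ran from -0.19 to 0.29 for FMA and from -0.24 to 0.22 for STOMAGEN, so a difference as large as that of SPCH lies outside both.

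Of 32 genes of mitosis, DNA replication and chromatin, none passed the threshold. At an unadjusted p under 0.05, 6 were lower at 48 h and 1 was higher, against 4.79% and 5.45% over all probe sets. A negative difference was found in 22 of the 32, against 7278 of 16154 over all. The median was -0.10, against 0.02 over all probe sets tested. The median was -0.11 with quantile normalization, -0.13 with centred arrays and -0.08 without replicate 1. In 3 of the 32, against 1.86% of all probe sets, the 48 h arrays lay wholly below the 24 h arrays: ASF1B, AUR2 and HTB1. AUR2 and SAMBA are named after their values were seen, and the others by rule.

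ASF1B, a histone chaperone, read 102, 86.4, 79.4 and 87.1 at 48 h, against 122, 122, 132 and 124 at 24 h. The difference was -0.43 ± 0.12 (adjusted p = 0.199), and -0.50 without replicate 1. AUR2, a mitotic Aurora kinase, read 73.1, 73.3, 82.4 and 67.6 at 48 h, against 93.3, 93.2, 105 and 90.5 at 24 h. HTB1, a histone H2B, read 268, 305, 316 and 267 at 48 h, against 331, 382, 360 and 348 at 24 h. AUR2 differed by -0.31 ± 0.10 and HTB1 by -0.28 ± 0.09, both the same without replicate 1.

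Overlap between the times was found for the other members with a low p. TOPII, DNA topoisomerase II, read 58.8, 104, 120 and 70.9 at 48 h, against 76.3, 134, 143 and 136 at 24 h. In 3xHMG-box2, a chromatin protein, the signal was 127, 163, 235 and 192 at 48 h, against 176, 250, 252 and 277 at 24 h. BUBR1, of the spindle checkpoint, read 28.6, 29.8, 35 and 25 at 48 h, against 29.1, 35.9, 56.2 and 45.4 at 24 h. The lowest 24 h array was replicate 1 for all 3 of these genes, and their differences were -0.41, -0.40 and -0.32. Leaving out replicate 1 of 48 h gave -0.27 for TOPII and -0.26 for 3xHMG-box2, and leaving out replicate 3 of 24 h gave -0.20 for BUBR1. SAMBA, a regulator of the anaphase-promoting complex, was the 1 higher member, with a mean of 106 ± 7.50 at 48 h and 83.6 ± 18.5 at 24 h (SD, n = 4 each).

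Of 7 histones tested 6 had a negative difference, against 7278 of 16154 over all probe sets, and the histone median was -0.13. HTB1, already counted above, was the 1 histone with an unadjusted p under 0.05. Of 21 genes of nuclear RNA polymerases and ribosome biogenesis 16 were negative, with a median of -0.11. Of these, 1 was lower at an unadjusted p under 0.05, a share no larger than the 4.79% over all probe sets. That gene was NRPC2, a large subunit of RNA polymerase III, which read 54.4, 62.2, 77.1 and 53.6 at 48 h, against 65.8, 113, 69.4 and 83.0 at 24 h. NRPA1, the largest subunit of RNA polymerase I, read 87.4, 95.2, 124 and 115 at 48 h, against 87.1, 148, 154 and 146 at 24 h. In NRPA1 replicate 1 was the 1 array of 24 h that did not lie above all 48 h arrays.

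**Figure D2:**
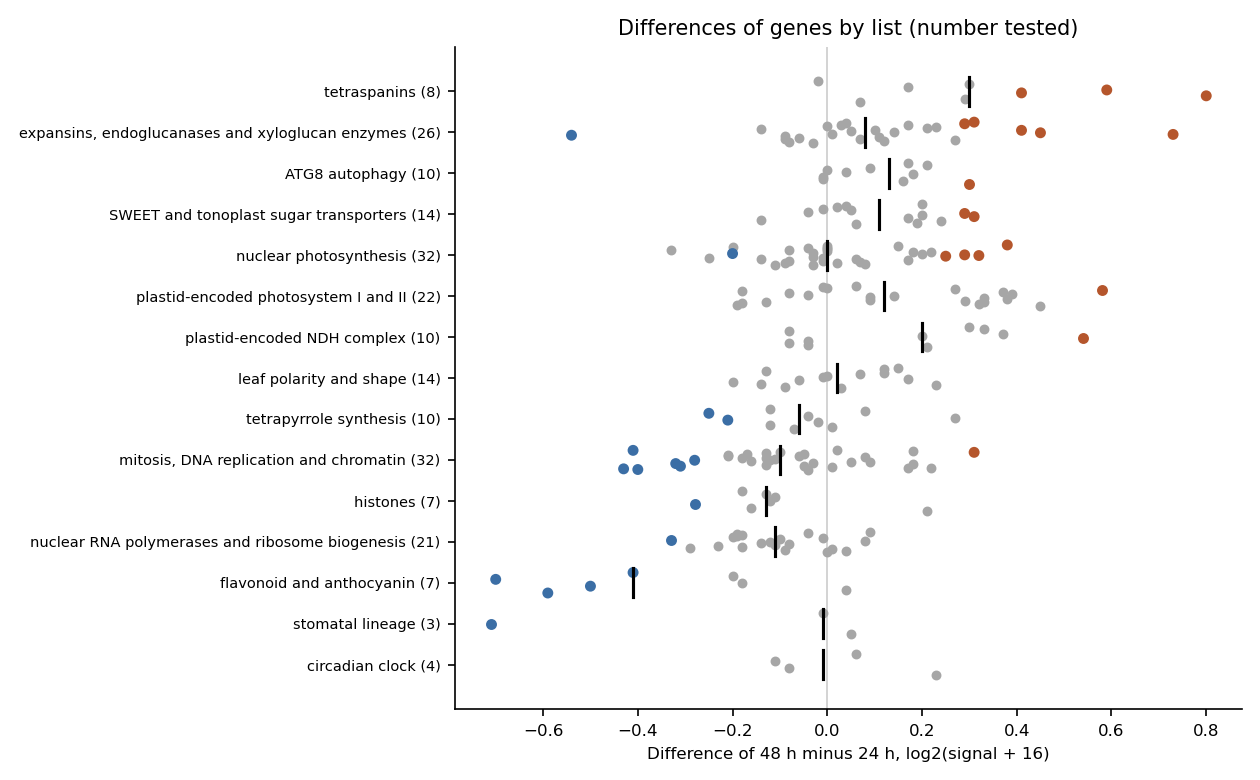
Difference of 48 h minus 24 h on the log2(signal + 16) scale for each tested gene of 15 lists. Black bars are list medians, coloured points have an unadjusted p under 0.05 (orange higher, blue lower at 48 h), and grey points do not; the tetraspanin median lies at 0.30, that of mitosis, DNA replication and chromatin at -0.10, and no gene drawn passed the adjusted threshold.

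Lists of genes that act on the cell wall differed in their counts. Of 26 expansins, endoglucanases and xyloglucan enzymes, 5 were higher and 1 lower at an unadjusted p under 0.05, and 4 were higher and 1 lower with arrays that do not overlap. Over all probe sets those shares were 5.45% higher and 4.79% lower by p, and 2.48% and 1.86% by overlap. The median was 0.08, against 0.02 over all probe sets, with 0.06 under quantile normalization, with centred arrays and without replicate 1, 0.13 with a pseudocount of 1 and 0.04 with a pseudocount of 64. Of 16 trichome birefringence-like genes, a family linked to acetylation of wall polysaccharides, 9 had a positive and 7 a negative difference, none was higher and 1 lower at an unadjusted p under 0.05, and the median was 0.02. XTH32 and EXPB5 are named after their values were seen.

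EXPA8, an expansin, read 97.5, 80.9, 99.4 and 84.6 at 48 h, against 67.7, 40.1, 40.9 and 46.9 at 24 h. The highest 24 h array was replicate 1. The difference was 0.73 ± 0.17 (adjusted p = 0.123), and 0.83 without replicate 1 (adjusted p = 0.0771). EXPB1, a beta-expansin, read 131, 167, 148 and 215 at 48 h, against 126, 91.8, 127 and 120 at 24 h. Replicate 1 of 48 h lay just above the highest 24 h array, and the difference was 0.45 ± 0.13.

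Brighter wall genes differed by less. XTH32, of the xyloglucan endotransglucosylase/hydrolase family, read 710, 767, 756 and 810 at 48 h, against 547, 590, 610 and 701 at 24 h. GH9C2, of the endoglucanase family, read 438, 424, 450 and 460 at 48 h, against 349, 320, 358 and 420 at 24 h. The differences were 0.31 ± 0.11 and 0.29 ± 0.09. EXPB5 averaged 30.8 ± 8.17 at 48 h and 19.0 ± 4.55 at 24 h, with overlap. The exception was EXPA7, an expansin known from root hairs, at 14.8, 13.8, 22.9 and 12.5 at 48 h, against 33.7, 32.1, 25.8 and 28.9 at 24 h, which lies near the low end of the array at both times.

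Pectin methylesterases, which trim methyl groups from wall pectin, were read by 3 genes, and 2 of them had an unadjusted p under 0.05. Both were higher at 48 h, as were 5.45% of all probe sets by that measure. ATPMEPCRB read 98.9, 142, 106 and 106 at 48 h, against 75.3, 73.0, 75.2 and 87.0 at 24 h. PMEPCRF read 362, 423, 430 and 436 at 48 h, against 266, 381, 351 and 330 at 24 h. PME61 went the other way in its mean, with 290 ± 14 at 48 h and 338 ± 67.1 at 24 h. The differences were 0.45 ± 0.16, 0.31 ± 0.12 and -0.19 ± 0.12. The unadjusted p of PME61 was not under 0.05, so its direction is not settled. The PME61 difference was -0.08 without replicate 2 of 24 h and -0.31 without replicate 1 of 24 h.

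Among 14 tubulin and microtubule genes, 2 were higher and 1 lower at an unadjusted p under 0.05, against 5.45% and 4.79% over all. The median was 0.06, against 0.02 over all probe sets. TUB7 read 376, 360, 343 and 347 at 48 h, against 419, 404, 443 and 426 at 24 h, without overlap. TUB1 read 112, 70.9, 80.8 and 61.6 at 48 h, against 70.1, 55.6, 54.9 and 54.7 at 24 h, and the highest array of each group was replicate 1. TUB5 had 219 ± 22 at 48 h and 183 ± 37.5 at 24 h. The signs of these beta-tubulins were mixed, and their adjusted p ran from 0.346 to 0.466 with all 8 arrays.

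Tetraspanins, small membrane proteins that organise domains of the plasma membrane, were read by 8 tested genes. Of these, 7 had a positive difference, against 8876 of 16154 over all probe sets. By an unadjusted p under 0.05, 3 were higher, against 5.45% over all, and the tetraspanin median was 0.30. It was 0.28 with quantile normalization, 0.27 with centred arrays, 0.38 without replicate 1 and 0.18 with a pseudocount of 64. TET2 read 37.0, 47.5, 53.6 and 51.5 at 48 h, against 2.41, 24.9, 27.8 and 36.7 at 24 h. The near-zero 24 h array was replicate 1. The groups do not overlap, and the difference of 0.80 ± 0.22 (adjusted p = 0.199) was 0.55 without replicate 1 of both times and 0.47 without replicate 1 of 24 h alone.

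TET3 read 39.8, 49.8, 53.6 and 48.9 at 48 h, against 27.8, 35.4, 34.7 and 31.2 at 24 h. TET5 read 7.62, 36.7, 25.7 and 27.3 at 48 h, against 20.22, 4.63, 5.55 and 11.4 at 24 h. Replicate 1 crossed between the groups in TET5: its 48 h array was the lowest of that group and its 24 h array the highest of the other. The TET5 difference was 0.59 ± 0.25 with all arrays and 0.99 without replicate 1, on signals that are dim at both times. TET8, chosen after its values were seen as the brightest member of the list, averaged 266 ± 20.7 at 48 h and 214 ± 36.5 at 24 h.

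Flavonoid and anthocyanin genes were read by 7 tested members of 34 on the list, and 6 had a negative difference. The median was -0.41 with all arrays and with quantile normalization, -0.43 with centred arrays and -0.31 without replicate 1. At an unadjusted p under 0.05, 4 were lower at 48 h, against 4.79% of all probe sets. None of the 7 had arrays that do not overlap. Over all probe sets 7278 of 16154 differences were negative. UF3GT, a glycosyltransferase of anthocyanin synthesis, read 66.7, 58.8, 141 and 63.4 at 48 h, against 60.2, 194, 161 and 176 at 24 h. A single array set the range on either side, replicate 3 at 48 h and replicate 1 at 24 h. Its difference was -0.70 ± 0.34 with all arrays (adjusted p = 0.483) and -0.98 without replicate 1 (adjusted p = 0.245).

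DFR, dihydroflavonol reductase, read 106, 77.4, 106 and 95.2 at 48 h, against 104, 179, 132 and 164 at 24 h. AT5MAT, a malonyltransferase that modifies anthocyanins, read 7.92, 19.4, 49.4 and 24.4 at 48 h, against 21.1, 41.6, 52.3 and 63.5 at 24 h. UGT78D2, a flavonoid glucosyltransferase, read 134, 226, 276 and 248 at 48 h, against 224, 362, 268 and 317 at 24 h. Their differences were -0.50 ± 0.21, -0.59 ± 0.27 and -0.41 ± 0.17, with adjusted p from 0.409 to 0.453. Without replicate 1 of 48 h the difference was -0.36 for AT5MAT and -0.20 for UGT78D2. UGT78D1 (-0.20 ± 0.16), which adds rhamnose to flavonols, HYH (-0.18 ± 0.14), a light-signalling transcription factor, and CHIL (0.04 ± 0.21), a chalcone isomerase-like protein, had intervals that include 0, and UGT78D1 differed by -0.03 without replicate 1.

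Medians of nuclear photosynthesis and of most plastid gene lists depended on the normalization. Of 32 nuclear photosynthesis genes, 4 were higher and 1 lower at an unadjusted p under 0.05, against 5.45% and 4.79% over all probe sets. The median was 0.00, but 0.13 with quantile normalization and -0.03 with centred arrays. NdhL and NdhN, subunits of the chloroplast NADH dehydrogenase-like complex, read 380, 330, 351 and 340 (NdhL) and 352, 390, 380 and 426 (NdhN) at 48 h, against 398, 224, 272 and 244 (NdhL) and 367, 293, 292 and 302 (NdhN) at 24 h. TRXF2, a thioredoxin of the stroma, read 340, 448, 419 and 447 at 48 h, against 405, 185, 408 and 311 at 24 h. Replicate 1 of 24 h lay above all 48 h arrays in NdhL and inside their range in NdhN. NdhN was named after its values were seen.

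Genes encoded in the plastid itself were read in 4 lists, and leaving out replicate 1 moved the median of 1 of them by more than 0.01. For the 22 photosystem genes of the plastid the median was 0.12 with all arrays, 0.22 without replicate 1 and 0.23 with quantile normalization, and 1 was higher at an unadjusted p under 0.05, a share below the 5.45% over all probe sets. That gene, psbN, read 112, 56.9, 89.9 and 91.6 at 48 h, against 136, 23.3, 40.05 and 47.1 at 24 h. Replicate 1 was the highest array at both times. Its difference was 0.58 ± 0.27 with all arrays and 0.86 without replicate 1 (adjusted p = 0.109), but 0.32 without replicate 2 of 24 h and 0.97 without replicate 1 of 24 h. Among 10 plastid NDH genes the median was 0.20, and ndhF, a dim one, averaged 29.2 ± 5.98 at 48 h and 15.2 ± 5.13 at 24 h without overlap. The medians were 0.02 for ATP synthase and cytochrome b6f genes and 0.03 for polymerase and ribosome genes of the plastid. With quantile normalization these 2 were 0.10 and 0.08, and the NDH median 0.22, against 0.00 over all probe sets. With centred arrays the same medians were 0.00, 0.00 and 0.18, against -0.01 over all.

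Proteins that build the chloroplast were represented by several lists. Cpn60beta2, a subunit of the chloroplast chaperonin, read 1030, 1005, 856 and 1035 at 48 h, against 1323, 1189, 1265 and 1363 at 24 h. Its arrays do not overlap, and the difference was -0.39 ± 0.10 (adjusted p = 0.199). It was the 1 member of 14 genes of chloroplast import, folding and division with an unadjusted p under 0.05. RAP, which takes part in chloroplast ribosomal RNA maturation, read 119, 144, 152 and 146 at 48 h, against 156, 183, 273 and 244 at 24 h, a difference of -0.53 ± 0.14 (adjusted p = 0.199). In tetrapyrrole synthesis, the route to chlorophyll and haem, HEME2 averaged 844 ± 40.9 at 48 h and 1011 ± 145 at 24 h, and HEMB1 809 ± 35.9 at 48 h and 942 ± 128 at 24 h, the 2 of 10 members with an unadjusted p under 0.05. By that measure 4.79% of all probe sets were lower at 48 h.

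Of 14 SWEET and tonoplast sugar transporters 11 had a positive difference, against 8876 of 16154 over all probe sets. By an unadjusted p under 0.05, 2 were higher and none lower, against 5.45% and 4.79% over all. Their median was 0.11. SWEET2 averaged 156 ± 28.6 at 48 h and 122 ± 14.2 at 24 h, and SWEET4 averaged 39.8 ± 7.11 at 48 h and 29.3 ± 2.89 at 24 h. ATSPS4F, a sucrose phosphate synthase, read 70.9, 53.1, 78.4 and 63.8 at 48 h, against 71.9, 27.9, 32.9 and 42.5 at 24 h, again with replicate 1 as the 24 h array inside the 48 h range. COR15A and COR47, both cold-regulated genes, differed in opposite directions. COR15A read 72.7, 62.8, 70.3 and 85.4 at 48 h, against 47.7, 52.3, 28.9 and 55.4 at 24 h, whereas COR47 averaged 191 ± 50.6 at 48 h and 253 ± 30.7 at 24 h. Their differences were 0.53 ± 0.25 and -0.40 ± 0.14.

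Clock genes served as a check on the time of day. None of 4 tested had an unadjusted p under 0.05, a measure by which 5.45% of all probe sets were higher and 4.79% lower. With so few genes, a count of none says little about the clock. GI, of the evening arm of the clock, read 40.1, 40.9, 42.1 and 43.8 at 48 h, against 59.3, 44.3, 41.9 and 41.8 at 24 h, and CCL, a rhythmic transcript, averaged 99.9 ± 32 at 48 h and 80.8 ± 12.5 at 24 h. Within the first day of treatment GI averaged 160.6 at 4 h and 11.67 at 12 h, and CCL 1567 at 12 h. The difference between 48 h and 24 h was -0.11 for GI (interval -0.37 to 0.14) and 0.23 for CCL (interval -0.05 to 0.51). Without replicate 1 these were -0.01 and 0.09.

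The 12 highest differences, among probe sets with 1 gene, an unadjusted p under 0.05, a mean above 43.6 in the higher group and no overlap, ran from 0.53 to 0.80. Besides TET2, EXPA8, AT3G56080 and COR15A they held DRT100, RING1 and 6 loci to which the gene table used here gives only a code. DRT100, a leucine-rich repeat protein named for DNA damage tolerance, read 254, 186, 190 and 161 at 48 h, against 102, 109, 114 and 121 at 24 h. Replicate 1 was the highest array at 48 h and the lowest at 24 h. The difference was 0.73 ± 0.16 (adjusted p = 0.0992), 0.58 without replicate 1 (adjusted p = 0.159), and it passed the threshold with the block (adjusted p = 0.045), though not with the block on the 8 arrays alone (adjusted p = 0.133). RING1, a ubiquitin ligase of defence, read 120, 117, 85.3 and 104 at 48 h, against 71.5, 80.6, 55.0 and 62.4 at 24 h.

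The 6 coded loci were AT2G46100, AT2G46600, AT2G07724, AT1G73600, AT1G68600 and AT5G47530, with differences from 0.53 to 0.60. AT1G73600 was the brightest, at 394, 396, 492 and 325 at 48 h, against 275, 262, 223 and 300 at 24 h (0.57 ± 0.13; adjusted p = 0.0992). AT2G46600 read 325, 313, 272 and 280 at 48 h, against 212, 212, 164 and 188 at 24 h (0.58 ± 0.16; adjusted p = 0.199). In both loci every 48 h array lay above every 24 h array.

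The 12 lowest differences by the same rule ran from -0.72 to -0.40. They held AT3G28500, SPCH, RAP, ASF1B and 8 other loci to which the gene table gives only a code. AT3G28500 read 222, 191, 215 and 180 at 48 h, against 303, 452, 319 and 308 at 24 h. The difference was -0.72 ± 0.15 (adjusted p = 0.0992), -0.81 without replicate 1 (adjusted p = 0.065), and the locus passed with the block (adjusted p = 0.045, but 0.124 on the 8 arrays alone). AT4G26370 read 70.9, 97.2, 92.8 and 88.5 at 48 h, against 103, 126, 140 and 147 at 24 h, and replicate 1 was the lowest array at both times. It passed with the block (adjusted p = 0.045, but 0.195 on the 8 arrays alone) and not without replicate 1 (adjusted p = 0.109).

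AT2G37190 read 1892, 1660, 1670 and 1301 at 48 h, against 1920, 2873, 2339 and 2048 at 24 h. Replicate 1 set the smallest gap between the groups, and the difference of -0.48 ± 0.12 was -0.64 without replicate 1 (adjusted p = 0.0471). The other 6, AT3G59650, AT3G19360, AT3G12340, AT4G31360, AT5G19750 and AT3G09670, had differences from -0.47 to -0.40. Of these AT3G59650 (adjusted p = 0.0992) and AT5G19750 (adjusted p = 0.0992) had the lowest adjusted p. AT5G19750 read 258, 305, 301 and 282 at 48 h, against 359, 423, 408 and 357 at 24 h.

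Other genes missed the threshold with all 8 arrays and passed it when replicate 1 was left out or the block was fitted. Of these, AT1G19960 read 263, 437, 499 and 496 at 48 h, against 173, 192, 251 and 271 at 24 h. Replicate 1 was the lowest array at both times, and the difference was 0.87 ± 0.19 (adjusted p = 0.0992), or 0.97 without replicate 1 (adjusted p = 0.0471). Fitted to the 8 arrays alone, its adjusted p was 0.494 without a block and 0.0299 with the block. With the block over all developing arrays it was 0.0661. AT2G32160 read 131, 208.5, 217 and 217 at 48 h, against 116, 101, 110 and 148 at 24 h. AT4G34480 read 126, 182, 199 and 201 at 48 h, against 114, 127, 124 and 117 at 24 h. AT1G20823 read 51.1, 60.3, 59.0 and 65.4 at 48 h, against 56.4, 29.9, 40.8 and 39.5 at 24 h. In each of these 3 the replicate 1 arrays of the 2 times lay closer together than the other equally numbered arrays, and each had an adjusted p of 0.0471 without it. AT5G48900 and AT3G07010 passed with the block (adjusted p = 0.0496 for both) and, without it, when replicate 1 of 24 h alone was left out (adjusted p = 0.0398 and 0.0396): AT5G48900 averaged 219 ± 8.31 at 48 h and 165 ± 11 at 24 h, and AT3G07010 averaged 118 ± 11.2 at 48 h and 78.2 ± 10.6 at 24 h. With array weights, which let arrays count unequally, all 6 of these loci passed with no array left out (adjusted p from 0.00382 to 0.0125).

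**Figure D3:**
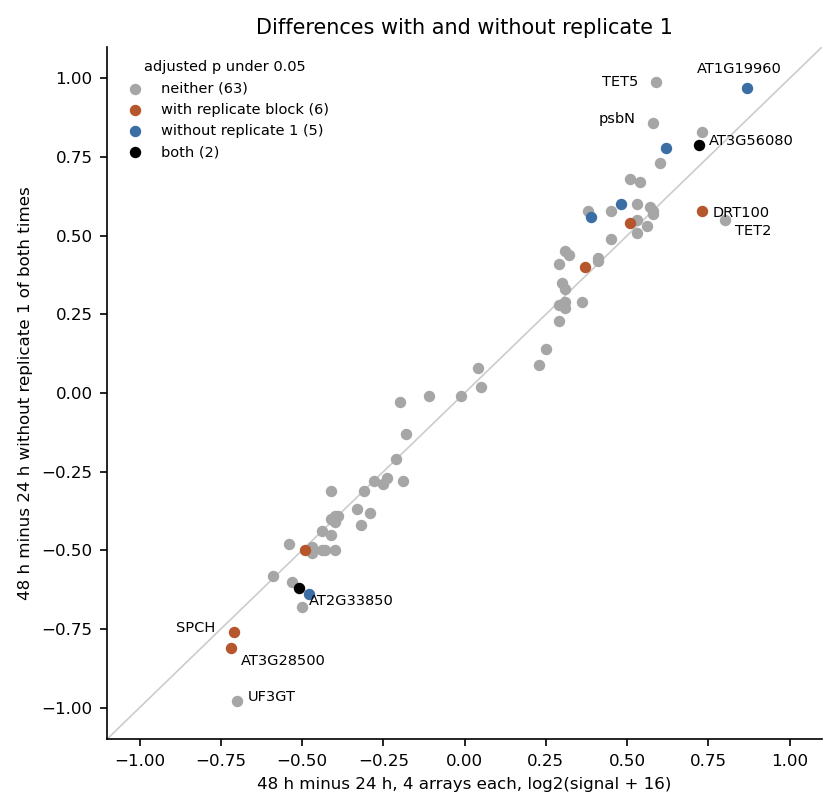
Difference of 48 h minus 24 h for 76 named genes with all 8 arrays (horizontal) and without replicate 1 of both times (vertical), both on the log2(signal + 16) scale, with the line of equality. Colours mark genes with an adjusted p under 0.05 with the replicate block (6 genes), without replicate 1 (5 genes) or in both (2 genes); TET5, psbN and UF3GT lie farther from 0 without replicate 1, and TET2 and DRT100 nearer to it.

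Values at the other times place the pair within the course of the treatment. They come with no test here, since the comparisons with 96 h and with mature leaves share the 24 h arrays. SPCH averaged 105, 110, 79.3, 120, 66.4 and 65.3 at 2, 4, 12, 24, 48 and 96 h. AUR2 averaged 74.6, 130.5, 116, 95.5, 74.1 and 38.5 at those times. EXPA8 averaged 69.9, 47.3, 43.5, 48.9, 90.6 and 126.5, and EXPB1 81.9, 44.6, 37.2, 116, 165 and 208. From 24 h on the means of AUR2 only decrease and those of EXPA8 and EXPB1 only increase, while SPCH is level between 48 h and 96 h. These genes were named for their difference between 48 h and 24 h or after it was seen. The step from 24 h to 48 h is therefore no separate evidence.

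RING1, also named for its difference between 48 h and 24 h, averaged 67.4 ± 11.1, 107 ± 15.8 and 356 ± 97.6 at 24, 48 and 96 h. Its means only increased as well. For 3 other genes the mean turned back after 48 h. AT3G28500 averaged 346 ± 71.6, 202 ± 19.7 and 277 ± 42.5 at 24, 48 and 96 h. AT5G47530 averaged 42.6 ± 6.59, 68.5 ± 10.5 and 44.8 ± 9.44 at those times, and AT2G07724 46.0 ± 7.26, 76.6 ± 10.6 and 48.3 ± 10.2. In the last pair the 48 h mean lay above like means on either side. All 3 genes were named for a large difference between 48 h and 24 h, so some return at 96 h follows from that choice.

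**Figure D4:**
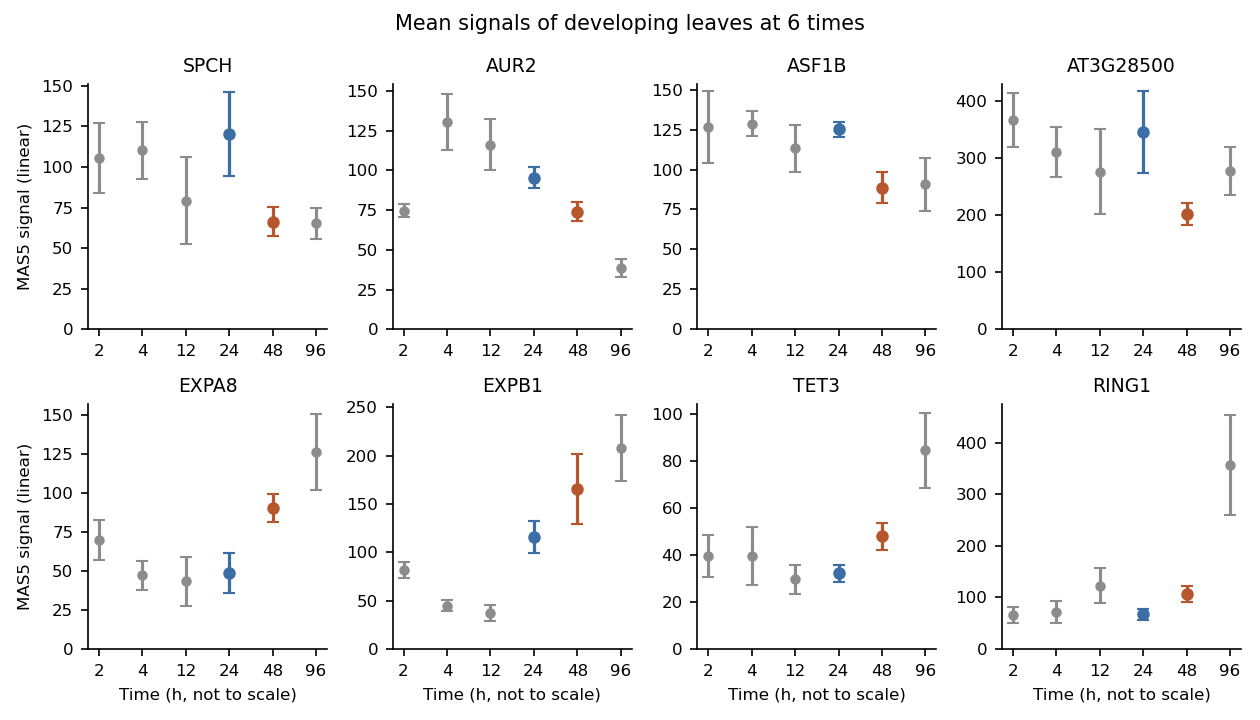
Mean signal ± SD (4 arrays each) of 8 genes in developing leaves at 2, 4, 12, 24, 48 and 96 h, on linear axes that start at 0, with times evenly spaced. The 24 h group is blue and the 48 h group orange; EXPA8, EXPB1, TET3 and RING1 have their highest mean at 96 h, and SPCH averages 66.4 at 48 h and 65.3 at 96 h.

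Markers of cell types could be read for few genes, and their summed signals overlapped between the times. The 4 tested of 18 mesophyll and whole leaf markers (RCA, CaS, PRK and HPR) summed to 7000 to 12680 per array at 48 h and 7976 to 13380 at 24 h. The 2 of 11 guard cell markers summed to 82.6 to 116 at 48 h and 76.8 to 95.8 at 24 h, and the 2 of 8 trichome markers to 165 to 233 at 48 h and 180 to 224 at 24 h. SWEET11, the 1 of 16 phloem and vascular markers, read 108 to 149 at 48 h and 86.6 to 138 at 24 h. The 2 of 15 root markers, the expansins EXPA7 and EXPA18, summed to 32.5 to 54.4 at 48 h and 48.0 to 69.1 at 24 h. No marker of epidermis, shoot meristem or flower was tested, so a shift in those cells was not tested.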

How the data were processed

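Total RNA of leaves was read on ATH1 arrays. The deposited signal intensities are linear, and MAS5 (version not given) is the tool that the submitters' processing notes name. In the deposited intensity columns the mean after trimming 2% at either end was 100 on each of the 8 arrays. The deposited table holds 22810 probe sets, 64 of them controls.

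Here intensities were transformed as log2(value + 16). Testing was limited to the 16154 probe sets above the array's 40th percentile on 2 or more arrays. A model of 7 group means over all 26 arrays was fitted with limma 3.58.1 in R 4.3.3 (lmFit, eBayes with trend), so all groups share the estimate of spread. The Benjamini-Hochberg method adjusted the p-values over these probe sets. The platform annotation, brought up to date with RefSeq gene names of assembly TAIR10.1, gave 1 gene for 8984 of the tested probe sets, several genes for 319 and none for 6851, which are unnamed here. Only 1229 had 1 gene with a name other than a locus code, so the lists cover part of each pathway. A gene with several probe sets is read by the brightest.

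Genes were named by rule from probe sets with 1 gene: the 12 highest and 12 lowest differences among non-overlapping groups with an unadjusted p under 0.05 and a higher mean above the overall median signal, those passing with the block or without replicate 1, the 3 largest differences of a list, the stomatal and flavonoid lists, and GI. Members and lists were chosen with earlier results of these data known, and many lists were drawn up after the annotation and the largest differences had been read, so they are not independent evidence. No test of a list as a whole was made.

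Each of 26 columns matched 1 sample and no 2 columns were identical. Precision is limited by the number of arrays. The fit was tested on simulated data before use. The simulated noise was independent between probe sets and arrays, so it held no shared deviation like that of replicate 1. It therefore cannot show how the fit behaves under such a deviation. Alternatives were the replicate block, leaving out replicate 1 or single arrays, the 8 arrays alone, other pseudocounts, no filter, quantile normalization, centring, array weights and eBayes without trend. Promoter and protein sequences were not used here.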

Additional observations from a re-analysis of the deposited data

Results flagged for a closer look

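In 16 of 152 groups of 4 arrays (76 named genes at 2 times), 1 array stood far from the other 3, by a gap that Dixon's test at the 95% level would pass; chance flags about 1 in 20 groups. In 9 of the 16 that array was replicate 1. What sets these arrays apart was not tested.

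At 48 h, replicate 1 was low for AT2G32160 (131, with the others from 208.5 to 217) and PMEPCRF (362, with the others from 423 to 436), and high for COR47 (267, with the others from 163 to 171). At 24 h it was low for NRPA1 (87.1, others 146 to 154), TOPII (76.3, others 134 to 143) and UF3GT (60.2, others 161 to 194). It was high at 24 h for GI (59.3, others 41.8 to 44.3), NdhN (367, others 292 to 302) and TUB1 (70.1, others 54.7 to 55.6).

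The other flags fell on other arrays. Replicate 3 at 48 h was high for AT1G68600 (63.9, others 48.2 to 49.1), AT3G59650 (81.3, others 60.9 to 63.1) and UF3GT (141, others 58.8 to 66.7). It was low for Cpn60beta2 (856, others 1010 to 1040 when rounded). At 24 h replicate 2 was high for AT3G28500 (452, others 303 to 319) and low for SWEET2 (101, others 127 to 133). Replicate 4 at 24 h was high for ATPMEPCRB (87.0, others 73.0 to 75.3).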

How the results depend on the processing

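The count of probe sets past the threshold, 0 with all 8 arrays (limma; 1655 at an unadjusted p under 0.05), depended on the arrays used. Leaving out 1 array in turn gave 0 to 83: 83 when replicate 1 of 24 h was left out, 12 for replicate 1 of 48 h, 2 for replicate 3 of 48 h and 0 for the other 5. Without replicate 1 of both times it was 15, and 48 with the replicate block added. Array weights gave 500, a pseudocount of 64 gave 3, and the 8 arrays alone with the replicate block gave 5. It stayed at 0 with a pseudocount of 1, without the filter on dim probe sets, with quantile normalization, with centred arrays, with eBayes without trend and with the 8 arrays alone. The cause was not tested. The replicate block over all developing arrays gave 17. By deviations from the group means, same-numbered arrays correlated at 0.517, -0.0065, 0.223 and -0.0158 for replicates 1 to 4. Unlike-numbered arrays correlated at -0.415 to 0.383. Only replicate 1 thus matched across the times more closely than unlike-numbered arrays did. The block is given because replicate 1 shares its high spike-in signal. Of 1520 combinations of a named gene and an alternative, 1428 kept direction and side of the threshold, 85 passed it (38 with array weights) and 7 turned sign. The sign turned for CHIL (leave-one-out range -0.01 to 0.1; -0.03 with array weights), for FMA (leave-one-out range -0.02 to 0.13; -0.01 with array weights) and for STOMAGEN (leave-one-out range -0.05 to 0.04; 0.01 with quantile normalization). Leaving out 1 array of 24 h gave 0.14 for TRXF2 (0.38 with all), 0.18 for SAMBA (0.31), -0.19 for NRPC2 (-0.33) and -0.13 for HEMB1 (-0.21), each without replicate 2, and -0.46 for NRPA1 (-0.29) and 0.48 for NdhL (0.32) without replicate 1. TUB1 was 0.22 without replicate 1 of 48 h (0.36 with all), and TUB5 0.14 without replicate 1 of both times (0.25). Of 372 list medians under an alternative, 10 moved by over 1 SD of the replicates. Signals near 0, as in TET2 and TET5, limit what a difference can show.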
